A study of Rattus norvegicus with 8 samples.

Results

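The transcription factor genes Fosb, Fosl1, Nr4a2, Egr2 and Klf10 were followed in RNA-seq libraries of rat nucleus pulposus cells, which come from the soft centre of the intervertebral disc. They were chosen by symbol, and 6 of the 4226 genes of the deposited table carry these names, since Fosl1 is listed under 2 Ensembl gene identifiers. In SOD1-K123R cells (4 libraries), the superoxide dismutase SOD1 was knocked down and then supplied again by transfection, with arginine in place of a lysine (K123R). In SOD1-WT cells (4 libraries), the same knockdown was followed by transfection of the wild-type protein. Lactate was given to both groups (10 mM, 7 days), so no library without lactate and none without knockdown was analysed here. Sod1 itself was not analysed here, and a difference in SOD1 level between the groups cannot be told apart from the substitution. The table heads the SOD1-K123R columns L and the SOD1-WT columns Ctrl, letters that the labels leave unexplained. If they stood for lactate and its absence, the effect of lactate could not be told apart from that of the substitution.

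Immediate early genes are transcribed within minutes of a growth factor, stress or mechanical signal, without new protein synthesis, and encode mostly transcription factors. FosB and Fra-1, the products of Fosb and Fosl1, pair with JUN proteins to form AP-1, a leucine-zipper dimer that acts on matrix protease and cytokine genes in cartilage and disc cells. Egr2 and Klf10 encode zinc finger proteins. Klf10 was first described as a gene induced early by TGF-beta. Nr4a2 encodes Nurr1, an orphan nuclear receptor that is active without a known natural ligand and is regulated mainly through its own amount.

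Values are TPM, a level scaled for transcript length and library total, and the depth behind them is unknown. The 2890 genes that averaged 1 TPM or more entered the test, all 6 rows of the factors among them. The test was limma on log2(TPM + 1), SOD1-K123R minus SOD1-WT, two-sided. A gene is said to have passed when its adjusted p (Benjamini-Hochberg, over all genes tested) was under 0.05. Of the genes tested 95.7% passed, 44.6% as higher and 51.1% as lower in SOD1-K123R, and for 91.4% the SOD1-K123R and SOD1-WT ranges were apart. The table holds only some genes, which make up 23.5% to 24.3% of all TPM of a library in SOD1-K123R and 18.8% to 19.9% in SOD1-WT. No source used here says how they were chosen. With 95.7% of genes passing, 5 passing rows of 6 are near the background. The median log2 fold change of all genes tested was -0.49, which median-of-ratios scaling shifted by 0.35 and quantile normalization by 0.23.

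Fosb, Klf10 and both Fosl1 identifiers rose in SOD1-K123R cells, Nr4a2 fell, and Egr2 did not pass. In bulk RNA, fewer cells expressing a gene and less of its RNA per cell cannot be told apart.

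**Figure D1:**
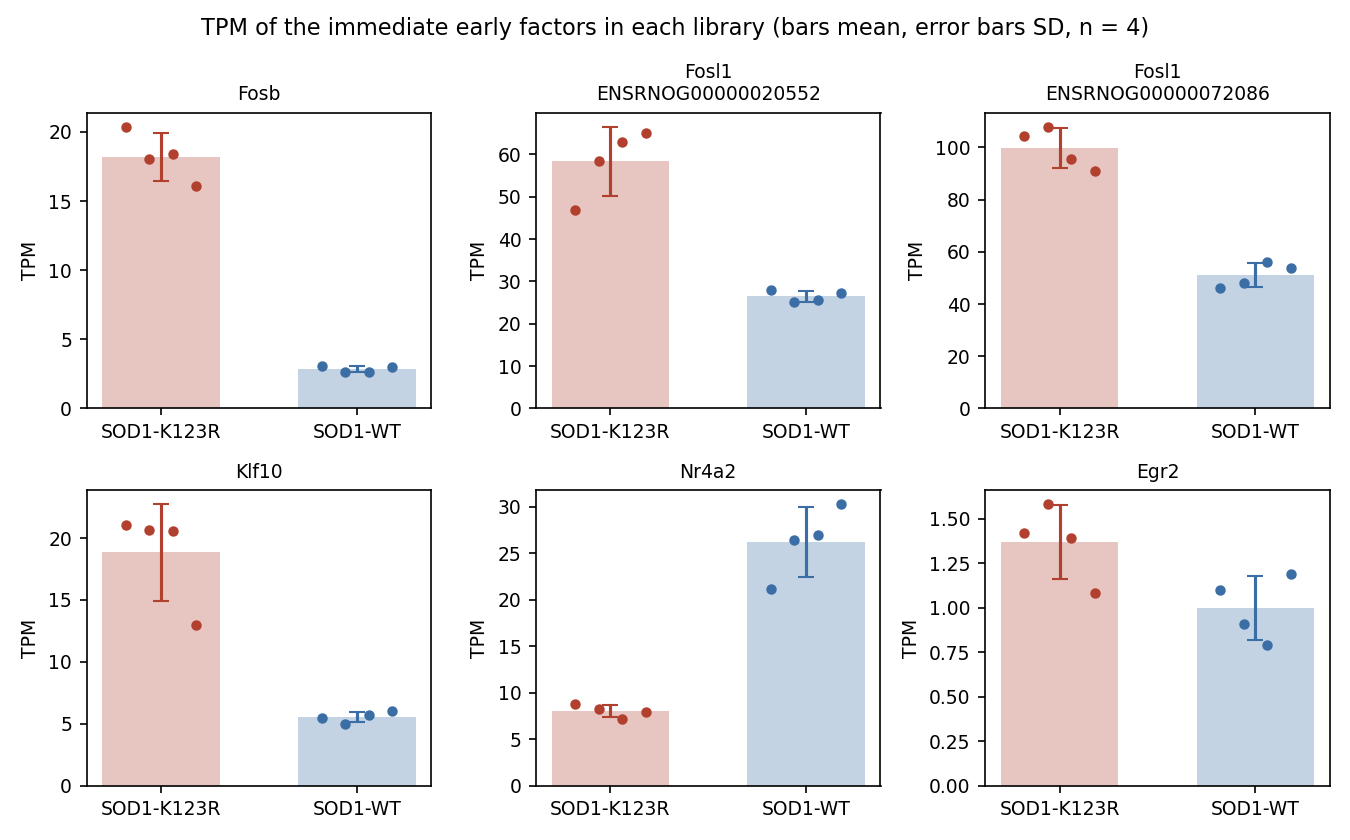
TPM of each immediate early factor in each library (points), with the group mean (bar) and SD (error bar, n = 4), SOD1-K123R in red and SOD1-WT in blue, each panel on its own linear axis from 0. The groups are apart in every panel except that of Egr2, and 1 SOD1-K123R library lies low for Klf10 (13.01 TPM).

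Promoter windows from RefSeq (GRCr8, 250 bases before to 50 after the start that the RefSeq table uses) were found for 4 of the 5 symbols. Klf10 was not among them. Fosb and Fosl1 are shown because they rose together, and Egr2 because it did not pass. Capitals mark matches, on either strand, to the short CRE site (TGACG), the TATA box (TATAAA), the GC box (GGGCGG) and the SRF CArG box. The Fosl1 window is chr1:212183635-212183934 on the plus strand, the Fosb window chr1:88089135-88089434 on the minus strand and the Egr2 window chr20:21054392-21054691 on the minus strand.
Fosl1: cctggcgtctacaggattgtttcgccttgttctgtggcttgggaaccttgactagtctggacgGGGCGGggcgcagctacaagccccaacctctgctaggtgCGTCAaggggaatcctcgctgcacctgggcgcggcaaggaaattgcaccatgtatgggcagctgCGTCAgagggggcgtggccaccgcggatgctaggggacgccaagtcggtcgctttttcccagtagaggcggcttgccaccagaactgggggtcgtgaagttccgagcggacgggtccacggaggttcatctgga
Fosb: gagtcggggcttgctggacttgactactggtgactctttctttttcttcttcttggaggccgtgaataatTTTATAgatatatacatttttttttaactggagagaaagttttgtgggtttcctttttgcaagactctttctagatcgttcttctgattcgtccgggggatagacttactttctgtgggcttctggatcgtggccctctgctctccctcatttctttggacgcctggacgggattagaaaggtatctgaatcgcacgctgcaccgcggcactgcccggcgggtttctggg
Egr2: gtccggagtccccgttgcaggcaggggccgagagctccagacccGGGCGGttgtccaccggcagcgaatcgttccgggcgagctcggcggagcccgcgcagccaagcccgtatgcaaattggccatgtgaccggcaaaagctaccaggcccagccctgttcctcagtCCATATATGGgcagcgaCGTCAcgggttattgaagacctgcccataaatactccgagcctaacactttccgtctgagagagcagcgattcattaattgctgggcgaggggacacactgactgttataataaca
The start used is the outer end of the gene for Fosl1, but lies 322 bases inside it for Fosb, 760 for Egr2 and 11039 for Nr4a2, so these windows may not cover the start used in the cells.

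Fosl1 and Fosb shared none of the searched motifs in these windows. Fosl1 held short CRE sites with their leftmost bases at -148 and -84 from the start and a GC box at -187, and Fosb held a TATA box match on the opposite strand at -180. Egr2 held a CArG box, the site bound by serum response factor, at -83, a short CRE site at -66 and a GC box at -206. Nr4a2 held a short CRE site at -8. Of the 33469 RefSeq promoters 21.2% hold a short CRE site, 33.1% a GC box, 14.2% the TATA motif and 1.64% a CArG box. The full CRE (TGACGTCA, in 1.83% of promoters, each of which also holds the short site), the AP-1 site (TGANTCA, 7.33%), the EGR site (GCGNGGGCG, 4.98%) and the NR4A site (AAAGGTCA, 1.43%) had no match in the 4 windows. The GC box and the EGR site can overlap. A missing match says only that these letters are not in the window.

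Fosb had 20.35, 18.01, 18.37 and 16.06 TPM in the SOD1-K123R libraries, against 3.05, 2.67, 2.6 and 2.96 TPM in the SOD1-WT libraries. Every SOD1-K123R library lay far above every SOD1-WT library. The means were 18.2 ± 1.76 TPM in SOD1-K123R and 2.82 ± 0.219 TPM in SOD1-WT (SD, n = 4 each), a ratio of 6.45. The log2 fold change was 2.33 (SE 0.11, limma adjusted p = 2.12e-09). Of the genes tested 4.46% had a larger absolute log2 fold change, which placed Fosb among the strongest changes of the table.

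Fosl1 encodes Fra-1, the other FOS-type subunit in the table, and was the most abundant of the factors. Under ENSRNOG00000020552 it had 46.89, 58.5, 62.9 and 65.06 TPM in SOD1-K123R, against 27.85, 25.11, 25.67 and 27.24 TPM in SOD1-WT. Under ENSRNOG00000072086 it had 104.36, 107.8, 95.63 and 91.07 TPM in SOD1-K123R, against 46.16, 48.16, 56.11 and 53.76 TPM in SOD1-WT. Neither identifier had overlapping groups. The log2 fold change was 1.10 (SE 0.11, limma adjusted p = 6.28e-07) for the first and 0.95 (SE 0.09, limma adjusted p = 5.90e-07) for the second.

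The 2 Fosl1 identifiers share a symbol, and reads that fit both could have been split between them, so the level of each alone is uncertain. ENSRNOG00000072086 held 58.3% to 69.0% of the summed Fosl1 TPM in SOD1-K123R and 62.4% to 68.6% in SOD1-WT, so its share overlapped between the groups. Summed over both identifiers, Fosl1 averaged 158 ± 6.28 TPM in SOD1-K123R and 77.5 ± 4.50 TPM in SOD1-WT (SD, n = 4 each). Fitted as 1 row, the sum had a log2 fold change of 1.02 (SE 0.08, limma adjusted p = 6.99e-08). Within SOD1-K123R the SD of the sum was smaller than that of either identifier, 8.11 TPM for ENSRNOG00000020552 and 7.71 TPM for ENSRNOG00000072086. Within SOD1-WT it was not, since the SD was 1.29 TPM for ENSRNOG00000020552 and 4.66 TPM for ENSRNOG00000072086. Whether reads were split between the identifiers was not tested.

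Klf10, whose product is a zinc finger factor of TGF-beta signalling, had 21.07, 20.67, 20.58 and 13.01 TPM in SOD1-K123R, against 5.43, 5.01, 5.71 and 5.99 TPM in SOD1-WT. The groups did not overlap, but SOD1-K123R replicate 4 stood well below the rest of its group. The means were 18.8 ± 3.89 TPM in SOD1-K123R and 5.54 ± 0.418 TPM in SOD1-WT (SD, n = 4 each). The log2 fold change was 1.58 (SE 0.15, limma adjusted p = 4.76e-07). Without that library the SOD1-K123R mean was 20.8 ± 0.261 TPM (SD of the other 3 libraries) and the log2 fold change was 1.74.

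Nr4a2, the nuclear receptor gene, went the other way. It had 8.79, 8.27, 7.21 and 7.97 TPM in SOD1-K123R, against 21.17, 26.43, 26.97 and 30.25 TPM in SOD1-WT. The highest SOD1-K123R library was well below the lowest SOD1-WT library. The means were 8.06 ± 0.660 TPM in SOD1-K123R and 26.2 ± 3.76 TPM in SOD1-WT (SD, n = 4 each), a ratio of 0.308. The log2 fold change was -1.58 (SE 0.12, limma adjusted p = 7.26e-08).

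Egr2, also known as Krox20, was near the filter of 1 TPM and its groups overlapped. It had 1.42, 1.58, 1.39 and 1.08 TPM in SOD1-K123R, against 1.1, 0.91, 0.79 and 1.19 TPM in SOD1-WT. SOD1-K123R replicate 4 lay below SOD1-WT replicates 1 and 4. The means were 1.37 ± 0.209 TPM in SOD1-K123R and 0.998 ± 0.181 TPM in SOD1-WT (SD, n = 4 each). The log2 fold change was 0.25, with a 95% interval of -0.01 to 0.50 (limma adjusted p = 0.0640). At this level the pseudocount of 1 shrinks the change. The ratio of the means was 1.37, and pseudocounts of 0.5 and 0.1 gave 0.32 and 0.42 on the log2 scale, neither of which passed. An exact two-sided permutation test of the TPM gave p = 0.0857, where 4 against 4 libraries cannot give less than 0.0286.

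The call for Egr2 depended on the processing. It passed as higher with median-of-ratios scaling (0.49 on the log2 scale, limma adjusted p = 0.00182) and after quantile normalization (0.43, limma adjusted p = 0.00395). It also passed without SOD1-K123R replicate 4 (0.31, limma adjusted p = 0.0311) and without SOD1-WT replicate 4 (0.29, limma adjusted p = 0.0486). In all it passed in 5 of 15 alternative fits, and its log2 fold change lay between 0.19 and 0.49 in them. For the other factors the call and the direction held in every alternative fit. Their log2 fold changes ranged from 2.27 to 2.71 for Fosb, from 1.52 to 2.00 for Klf10 and from -1.68 to -1.13 for Nr4a2. For Fosl1 the ranges were 0.99 to 1.57 under ENSRNOG00000020552 and 0.80 to 1.43 under ENSRNOG00000072086.

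**Figure D2:**
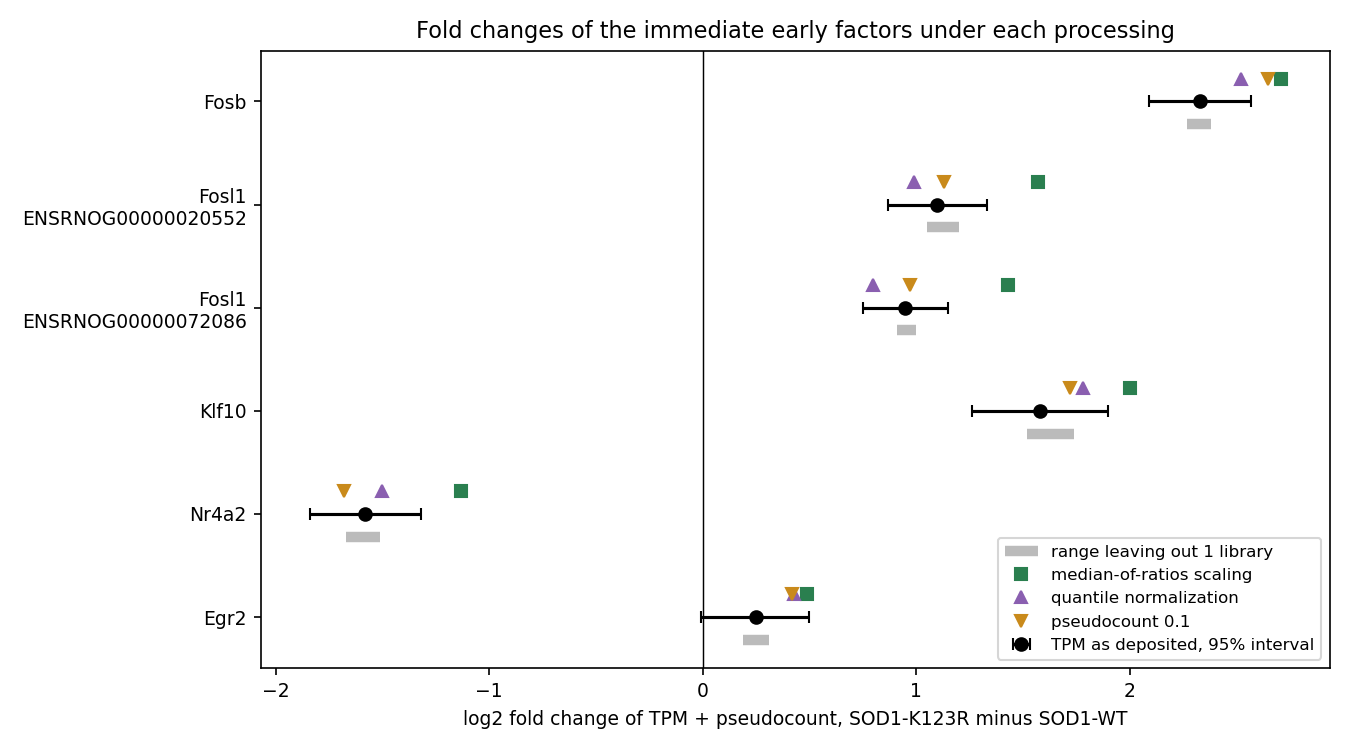
Log2 fold change, SOD1-K123R minus SOD1-WT, of each immediate early factor, with the values from TPM as deposited and their 95% interval (black), 2 other scalings and a smaller pseudocount (coloured), and the range when 1 library is left out (grey). The interval of Egr2 (-0.01 to 0.50) reaches 0, while Fosb, Klf10 and both Fosl1 identifiers stay above 0 and Nr4a2 below it in every setting drawn.

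Ranked by mean TPM in SOD1-K123R, the order was Egr2, Nr4a2, Fosb, Klf10, Fosl1 under ENSRNOG00000020552 and Fosl1 under ENSRNOG00000072086. In SOD1-WT the order was Egr2, Fosb, Klf10, Nr4a2 and the 2 Fosl1 identifiers. Nr4a2 was thus second lowest in SOD1-K123R and above Fosb and Klf10 in SOD1-WT. Neighbours in this order were not all distinct. Fosb and Klf10 in SOD1-K123R had a mean log2 ratio of -0.03 ± 0.22, and ENSRNOG00000020552 and Nr4a2 in SOD1-WT had one of 0.02 ± 0.24 (SD, n = 4 each), both smaller than their spread.

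Ratios between 2 factors within a library do not depend on a scale factor common to all its genes, apart from the pseudocount. Quantile normalization is not such a factor, and the ratios were not computed after it. All 15 pairs of the 6 rows were compared by log2((TPM + 1)/(TPM + 1)) with an exact two-sided permutation test over the 70 divisions of the libraries. For 13 pairs the groups did not overlap and p was 0.0286, the smallest this design allows (adjusted p = 0.0330 over the 15 pairs). Among all 4174605 pairs of tested genes 71.7% likewise did not overlap, so a shifted ratio was common in this table.

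The balance between Fosb and Nr4a2 differed most. Their log2 ratio was 1.08 ± 0.13 in SOD1-K123R and -2.82 ± 0.25 in SOD1-WT (SD, n = 4 each), a difference of 3.90. Fosb was thus above Nr4a2 in every SOD1-K123R library and below it in every SOD1-WT library. Klf10 to Nr4a2 turned in the same way, with 1.11 ± 0.32 in SOD1-K123R and -2.05 ± 0.18 in SOD1-WT. Fosb also gained on both Fosl1 identifiers. The log2 ratio of Fosb to ENSRNOG00000072086 was -2.39 ± 0.10 in SOD1-K123R and -3.77 ± 0.18 in SOD1-WT, and that to ENSRNOG00000020552 was -1.62 ± 0.33 in SOD1-K123R and -2.85 ± 0.03 in SOD1-WT. Of the TPM of Fosb and Fosl1 together, Fosb held 9.33% to 11.9% in SOD1-K123R and 3.08% to 3.96% in SOD1-WT.

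On this scale the ratios with Egr2, whose own log2 fold change was 0.25, carry mainly the changes of the other gene. The log2 ratio of Egr2 to Nr4a2 was -1.94 ± 0.15 in SOD1-K123R and -3.76 ± 0.25 in SOD1-WT, while that of Fosb to Egr2 was 3.02 ± 0.11 in SOD1-K123R and 0.94 ± 0.06 in SOD1-WT (SD, n = 4 each). This holds less for Fosl1. With a pseudocount of 0.1 Egr2 itself changed by 0.42. The difference to Egr2 then fell from 0.86 to 0.70 for ENSRNOG00000020552 and from 0.71 to 0.54 for ENSRNOG00000072086. The pairs that missed the threshold were the 2 Fosl1 identifiers (difference 0.15, exact permutation p = 0.371, adjusted p = 0.371) and Klf10 with ENSRNOG00000020552 (difference 0.48, exact permutation p = 0.143, adjusted p = 0.153). Klf10 with ENSRNOG00000020552 passed without SOD1-K123R replicate 4, the library low for Klf10 (difference 0.69, exact permutation, adjusted p = 0.0306). The pair of Klf10 with ENSRNOG00000072086 no longer passed when any 1 SOD1-WT library was left out (exact permutation, adjusted p = 0.0659 each time). Its difference then stayed at 0.59 to 0.66, against 0.63 with all libraries. The ratios lay between -2.72 and -2.16 in SOD1-K123R and between -3.09 and -2.87 in SOD1-WT, so the groups remained apart.

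**Figure D3:**
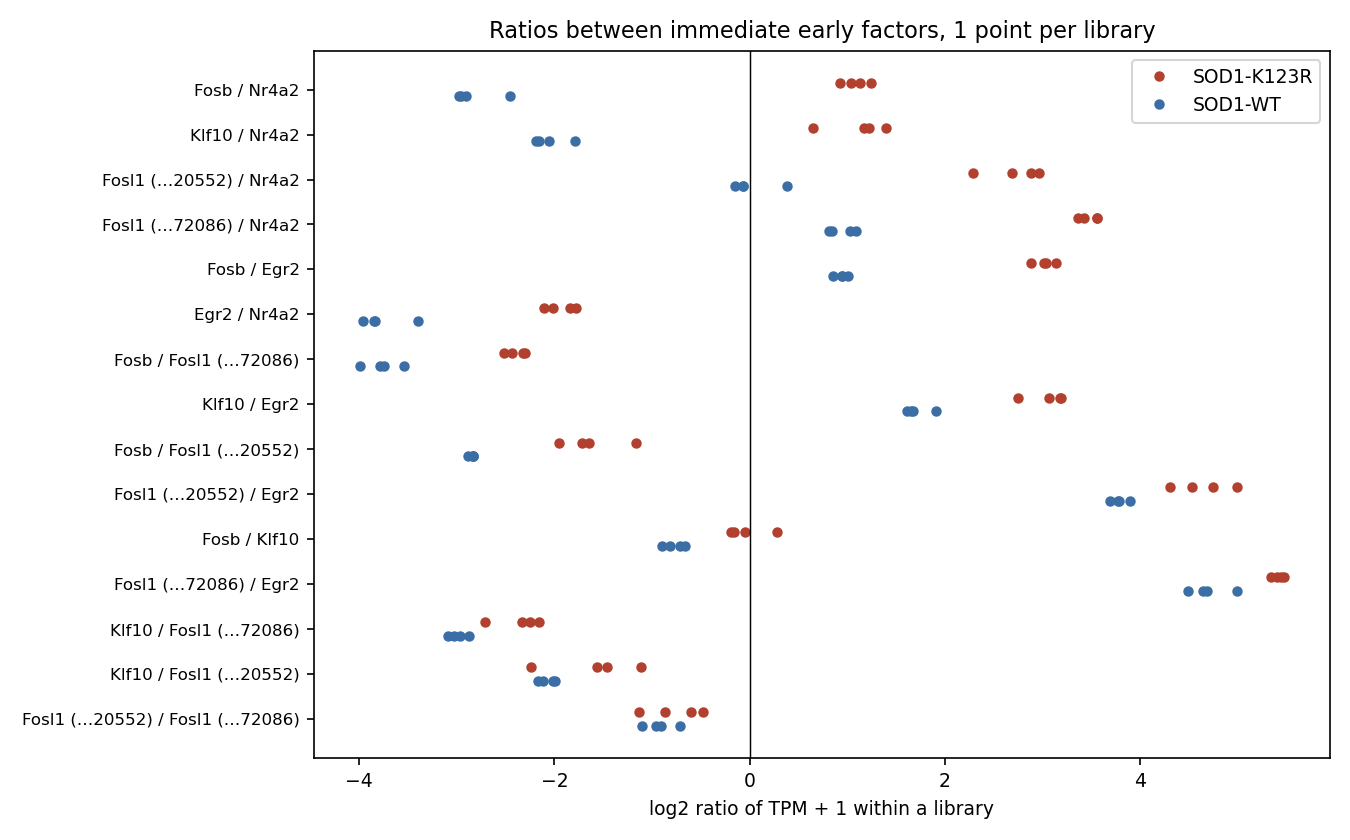
Log2 ratio of TPM + 1 between each pair of immediate early factors within each library (1 point per library), SOD1-K123R in red above SOD1-WT in blue, ordered by the difference of the group means, with Fosl1 marked by the last digits of its identifier. The points of the groups are farthest apart for Fosb to Nr4a2 (1.08 against -2.82 on average) and overlap for the 2 Fosl1 identifiers and for Klf10 with the first of them.

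The factors were chosen as transcription factor genes, so a shared DNA-binding term in their annotation follows from that choice. All 6 rows carry the term for sequence-specific DNA binding in the region proximal to RNA polymerase II core promoters. Of the genes tested 84 carry it (2.91%). Fosb and ENSRNOG00000020552 are also annotated with the response to mechanical stimulus, as were 11 tested genes in all, the response to cAMP (8 tested genes) and the KEGG pathways of IL-17 signalling (16 tested genes) and osteoclast differentiation (13 tested genes). These terms come from prior work and carry no information on the direction of change here.

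Beyond the factors themselves, the AP-1 subunits in the table also rose. Subunits outside the table cannot be judged, because how its genes were chosen is unknown. Of 21 subunit genes listed, 11 were in the table as 12 rows. All 12 passed as higher, with a median log2 fold change of 1.10 against -0.49 over all genes tested, where 44.6% of all genes tested passed as higher. The 12 include Fosb and both Fosl1 rows. This list and those below were chosen with earlier results of these data known, so their counts are descriptions only. Direction and call held under both other scalings.

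Among the JUN subunits, which pair with FosB and Fra-1, Jun had 86.3 ± 8.10 TPM in SOD1-K123R and 39.3 ± 1.45 TPM in SOD1-WT (log2 fold change 1.11). Junb, the most abundant subunit, had 349 ± 22.8 TPM in SOD1-K123R and 199 ± 28.4 TPM in SOD1-WT (0.82). Jund had 119 ± 6.54 TPM in SOD1-K123R and 45.8 ± 8.02 TPM in SOD1-WT (1.37). Atf3, a stress-induced partner of JUN proteins, was the only subunit with a larger change than Fosb, at 34.9 ± 2.51 TPM in SOD1-K123R and 4.33 ± 0.832 TPM in SOD1-WT (2.76). The rest were Atf7 (log2 fold change 1.09), Jdp2, a JUN-binding repressor (1.10), and the MAF genes Maff (1.19), Mafk (0.60) and Mafa (0.84). Their highest limma adjusted p was 0.000154, for Mafa.

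The make-up of these AP-1 transcripts was compared as shares of their sum. Summed over the 12 rows they came to 1212 ± 43.6 TPM in SOD1-K123R and 579 ± 52.1 TPM in SOD1-WT (SD, n = 4 each). The FOS genes, Fosb and Fosl1, held 14.6% ± 0.796 of that sum in SOD1-K123R and 14.0% ± 1.82 in SOD1-WT, and the groups overlapped. The 3 JUN genes held 45.7% ± 0.764 in SOD1-K123R and 49.0% ± 1.91 in SOD1-WT, and here too the groups overlapped. Within them Junb held less, 28.8% ± 0.890 in SOD1-K123R and 34.2% ± 1.76 in SOD1-WT, without overlap. Jund held 9.80% ± 0.546 in SOD1-K123R and 7.89% ± 1.02 in SOD1-WT, with overlap. The share of Mafk was also lower, 4.55% ± 0.206 in SOD1-K123R and 6.21% ± 0.184 in SOD1-WT, without overlap. The sum counts MAF genes as AP-1 subunits. Maff and Mafk together held 28.0% ± 0.558 of it in SOD1-K123R and 27.8% ± 1.96 in SOD1-WT, with overlap. Atf3, Atf7 and Jdp2 together held 11.5% ± 0.736 in SOD1-K123R and 9.02% ± 0.588 in SOD1-WT, without overlap. Fosb alone held 1.51% ± 0.191 in SOD1-K123R and 0.488% ± 0.0217 in SOD1-WT, and Atf3 held 2.88% ± 0.250 in SOD1-K123R and 0.760% ± 0.210 in SOD1-WT. The sums cover only subunits in the table; Fos and Fosl2 were among those not analysed here.

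**Figure D4:**
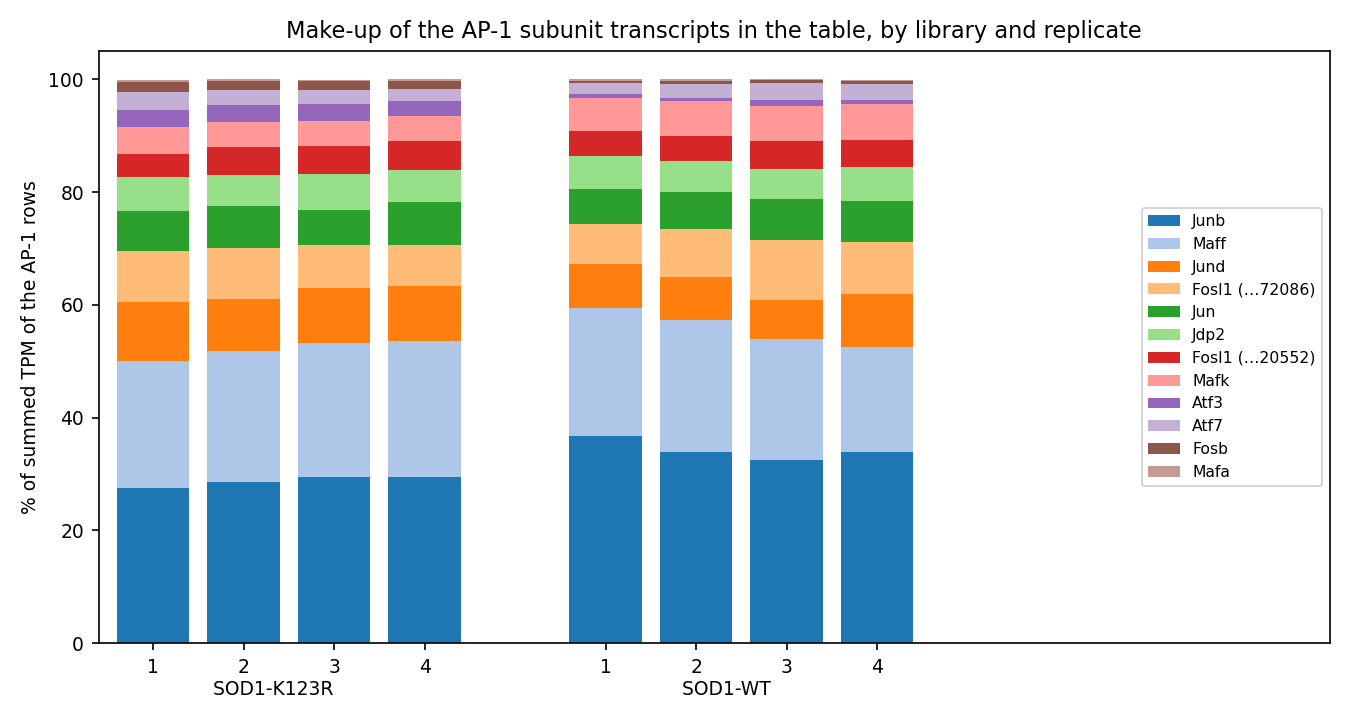
Share of each AP-1 subunit gene in the summed TPM of the 12 AP-1 rows of the table, 1 bar per library, SOD1-K123R on the left and SOD1-WT on the right, with Fosl1 marked by the last digits of its identifier. Junb and Maff take the largest shares in both groups, and Fosb takes 1.51% on average in SOD1-K123R and 0.488% in SOD1-WT.

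The relatives of the other factors were few in the table. Besides Klf10, the KLF genes Klf9, a glucocorticoid-induced repressor, and Klf11, the closest relative of Klf10, were measured, and both rose. Klf9 had 28.5 ± 4.60 TPM in SOD1-K123R and 8.11 ± 1.26 TPM in SOD1-WT (log2 fold change 1.69, limma adjusted p = 1.28e-07). Klf11 had 10.3 ± 1.14 TPM in SOD1-K123R and 3.31 ± 0.285 TPM in SOD1-WT (1.38, limma adjusted p = 2.03e-07). Egr4, the other EGR gene in the table, was below the filter, with 0.23, 0.15, 0.07 and 0.21 TPM in SOD1-K123R and a listing of 0 in every SOD1-WT library. No relative of Nr4a2 on the list was analysed here.

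Other immediate early regulators, on a list also chosen with earlier results known, mostly rose where they were tested. Of 31 other transcription regulators on the list, 17 were in the table and 16 were tested, of which 14 rose, Maff included, and 2 fell (median log2 fold change 1.20). Over all genes tested 44.6% passed as higher and 51.1% as lower. The strongest by adjusted p were Bhlhe40, a basic helix-loop-helix repressor (3.32), Irf1, an interferon-regulated factor (3.36), Tiparp, an ADP-ribosyltransferase induced by dioxin (3.53), and Hes1, a Notch target repressor (2.77). The 2 that fell with Nr4a2, named after their values were seen, were Cebpd, a C/EBP factor of the acute phase response (2.71 ± 0.675 TPM in SOD1-K123R and 22.5 ± 5.09 TPM in SOD1-WT), and Crem, a cAMP-responsive factor (6.75 ± 2.11 TPM in SOD1-K123R and 21.3 ± 4.04 TPM in SOD1-WT). Ier3, an early response gene of cell survival named after its values were seen, rose by only 0.25, fell by 0.32 after quantile normalization, and lost its call without SOD1-K123R replicate 2 (0.23), SOD1-K123R replicate 4 (0.22) or SOD1-WT replicate 3 (0.19). Npas4, an activity-dependent factor of neurons also named after its values were seen, was below the filter at 0.405 ± 0.0904 TPM in SOD1-K123R and 1.29 ± 0.346 TPM in SOD1-WT.

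Of 33 immediate early effectors 18 were tested, of which 14 rose, 2 fell and 2 did not pass (median log2 fold change 1.42), beside 44.6% higher and 51.1% lower over all genes tested. Rem2, a small GTPase of calcium channels, rose by 5.50, Gadd45b and Gadd45a, growth arrest genes, by 3.99 and 3.50, and Vegfa, the angiogenic factor, by 2.51. Thbs1, a matricellular protein, and Areg, an EGF receptor ligand, fell (-1.56 and -0.53), and the call for Areg ended after median-of-ratios scaling (-0.08, limma adjusted p = 0.629). Dusp2, a MAP kinase phosphatase (-0.31), and Plaur, the urokinase receptor (0.20), did not pass. Plaur passed as higher after median-of-ratios scaling (0.68) and without SOD1-K123R replicate 2 (0.25) or SOD1-WT replicate 1 (0.26), and Dusp2 passed as lower without SOD1-K123R replicate 2 (-0.41). Those 4 genes were named after their values were seen.

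The MAP kinase cascade, which drives many immediate early genes, was barely represented. Of 39 receptors and kinases listed only Fgfr2, a fibroblast growth factor receptor, was analysed here, and it rose (log2 fold change 1.15). Its feedback inhibitors were better covered, with 8 of 21 tested, of which 6 rose, 1 fell and 1, Dusp2, did not pass, where 44.6% of all genes tested were called higher and 51.1% lower. Dusp2, Dusp4, Dusp5, Dusp8 and Dusp10 were already counted among the effectors above. The nuclear phosphatase Dusp5 had 114 ± 6.44 TPM in SOD1-K123R and 37.7 ± 1.12 TPM in SOD1-WT. Dusp7 and Dusp8, which also remove phosphate from MAP kinases, rose by 1.83 and 1.74. Spry1, an inhibitor of receptor tyrosine kinase signalling, fell to 11.9 ± 0.984 TPM in SOD1-K123R, against 74.8 ± 10.1 TPM in SOD1-WT.

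Of 20 listed regulators of the SRF and CREB routes to immediate early genes, 3 were tested, all of them genes of cAMP signalling. All 3 fell, as did 51.1% of all genes tested. Besides Crem these were Pde4d, a cAMP phosphodiesterase (1.16 ± 0.210 TPM in SOD1-K123R and 5.49 ± 1.29 TPM in SOD1-WT), and Prkar2a, a regulatory subunit of protein kinase A (18.2 ± 2.58 TPM in SOD1-K123R and 44.6 ± 5.71 TPM in SOD1-WT). In the TGF-beta list around Klf10, 7 of 18 genes were tested and all 7 rose, Klf10 and Klf11 included (median log2 fold change 1.38), beside 44.6% of all genes tested. Tgif1, a repressor of SMAD activity, had 199 ± 13.3 TPM in SOD1-K123R and 64.0 ± 1.97 TPM in SOD1-WT. Smad2, a signal carrier of TGF-beta, rose by 1.55 and Smad6, an inhibitory SMAD, by 1.34.

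Genes described elsewhere as carrying AP-1 sites moved in both directions. Of 25 listed, 13 were tested, of which 8 rose, 4 fell and 1, Plaur, did not pass (median log2 fold change 0.66). The shares over all genes tested were 44.6% higher and 51.1% lower. Hmox1, which degrades heme, rose by 2.72, Vegfa by 2.51 and Plau, the urokinase plasminogen activator, by 1.76. The cytokine Il6 fell by 2.94. The other 3 that fell, named after their values were seen, were Ccl2 and Il1b, inflammatory mediators (-1.93 and -1.98), and Lox, a collagen cross-linking enzyme (-1.56). Mmp13, a collagenase named for its dependence on the scaling, rose by 0.58 but not after quantile normalization (-0.07, limma adjusted p = 0.564).

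**Figure D5:**
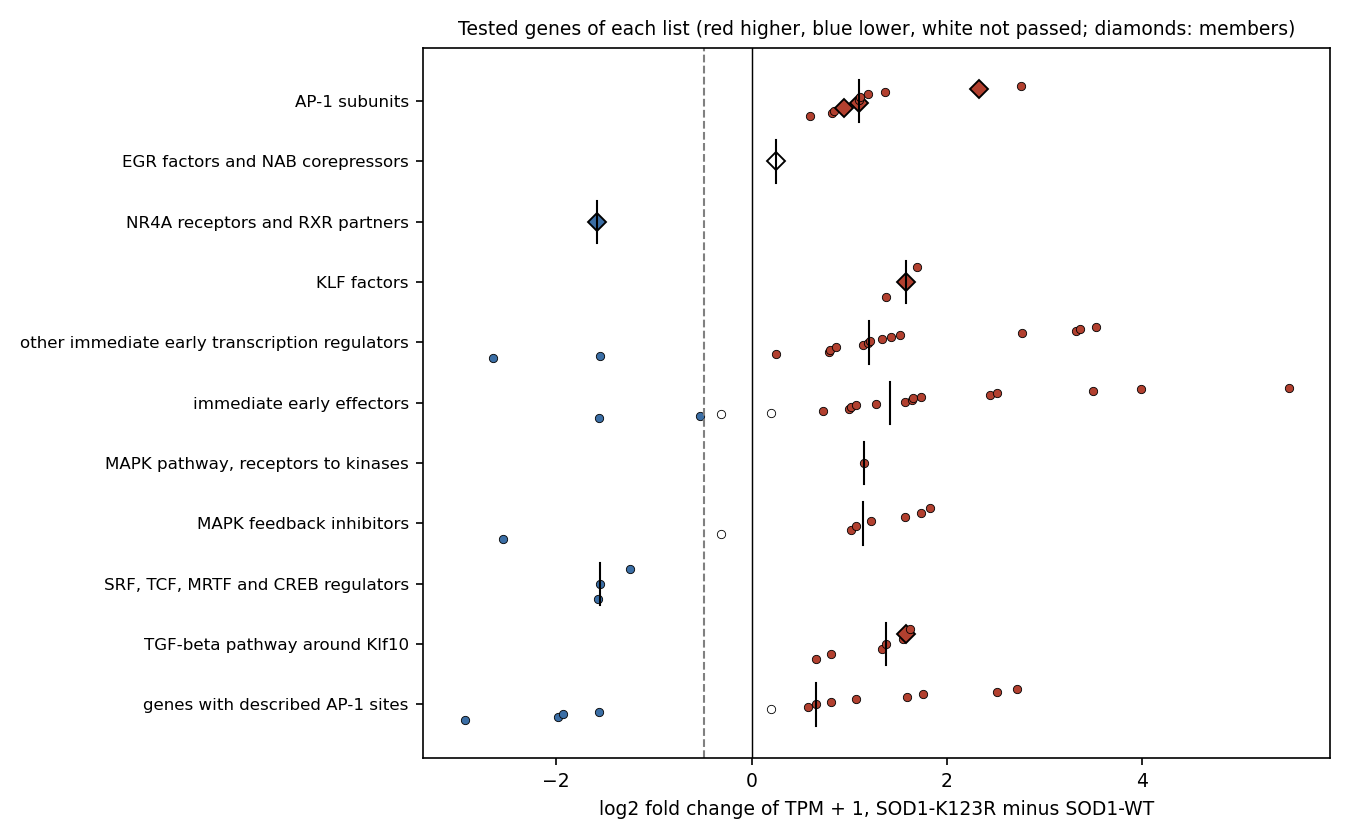
Log2 fold change, SOD1-K123R minus SOD1-WT, of every tested gene of each list (points; diamonds are the immediate early factors followed here; red passed as higher, blue as lower, white did not pass), with the list's median (black tick) and the median of all genes tested (dashed, -0.49). All 12 AP-1 rows lie above 0 and all 3 tested genes of the SRF and CREB list below it, and some genes stand in more than 1 list.

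The genes whose profiles over the 8 libraries were most like each factor were found among 2558 tested protein-coding genes by the root mean square difference of centred log2(TPM + 1) values. For Fosb they were Slc2a1, the glucose transporter GLUT1 (difference 0.109), and Tap2, a peptide transporter of antigen presentation (0.116). For Klf10 they were Cd24, a surface antigen of nucleus pulposus cells (0.120), and Eps8, an actin regulator (0.131). For Nr4a2 they were Lox (0.0612) and Septin11, a cytoskeletal GTPase (0.0692). For Egr2 they were Tnfaip3, a brake on NF-kB (0.103), and Alas1, the first enzyme of heme synthesis (0.108), both of which are far more abundant. For Fosl1 they were Spsb4 (0.0619) and Mmp15 (0.0931) under ENSRNOG00000020552, and Zfp280b (0.0437) and Cdk13 (0.0584) under ENSRNOG00000072086. Spsb4 averaged 4.24 TPM in SOD1-K123R and 1.39 TPM in SOD1-WT, and Mmp15 averaged 2.30 and 0.395 TPM. At levels so near the pseudocount of 1 a log2 fold change is shrunk, so their likeness to Fosl1 holds only on this scale. Slc2a1 and Tap2 had log2 fold changes of 2.28 and 2.32, against 2.33 for Fosb, and Lox and Septin11 had -1.56 and -1.55, against -1.58 for Nr4a2. Such closeness follows from how these genes were found. Fosb averaged only 2.82 TPM in SOD1-WT, so its log2 fold change is shrunk as well. Its ratio of the means was 6.45, against 5.21 for Tap2.

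Markers fixed for the labelled cell type gave a mixed picture. Of 18 nucleus pulposus and chondrogenic names 7 were in the table, with a summed level of 45.7 to 67.4 TPM in SOD1-K123R and 50.1 to 64.5 TPM in SOD1-WT. Sox9, Car12 and Cd24 rose, and Acan, Cdh2 and Ncam1 fell. The defining matrix genes were near 0. Col2a1 had 0.02 to 0.08 TPM in SOD1-K123R and was listed at 0 in SOD1-WT, and Acan averaged 0.645 ± 0.0998 TPM in SOD1-K123R and 1.54 ± 0.419 TPM in SOD1-WT. Of 7 macrophage and leukocyte markers only Cd68 was analysed here, with 22.8 to 29.8 TPM in SOD1-K123R and 5.44 to 7.94 TPM in SOD1-WT. Of 6 endothelial markers only Pecam1 was analysed, at 0.320 to 0.460 TPM in SOD1-K123R and 0.0600 to 0.310 TPM in SOD1-WT. The outer disc and tendon markers in the table, Scx and Thbs4 (2 of 5), fell. The neural marker Tubb3 (1 of 5) and the pericyte marker Mcam (1 of 3) rose. Of 4 bone markers Runx2 rose and Ibsp fell, and of 3 adipocyte markers Fabp4 rose (log2 fold change 0.50). None of the 4 muscle and 4 erythroid markers was analysed here. The part of other cells in the changes of the immediate early factors was not tested.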

How the data were processed

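The authors deposited 1 gene-level table of TPM for 8 libraries, with Ensembl identifiers, symbols and annotation, per the file headers; its name gives RSEM as the source. DESeq2 is named in the submitters' processing notes without a role. The sources used here name no aligner, genome build or annotation release. Libraries came from TRIzol-extracted total RNA sequenced as pairs on a NovaSeq, per the labels' protocols. TPM keep no read counts, so depth is unknown. Samples were grouped by title. No label states that replicates are separate cultures. The p-values then reflect the spread of these samples alone, possibly a technical one. Library identifiers form 1 unbroken run per group.

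Log2(TPM + 1) was fitted with limma 3.58.1 (eBayes with a trend, R 4.3.3) over the 2890 genes that averaged 1 TPM or more; 1336 lay below. Errors of TPM are SD, those of log2 fold changes limma's SE. Pair ratios and motif searches used Python 3.11.15. The factors, the lists and the tests were chosen with earlier results of these data known. Named are the 5 factors, every table row of their 4 families, up to 4 genes per other list with the smallest adjusted p, and the 2 genes most like each factor. Alternatives were other filters, pseudocounts, scalings, no trend, the replicate block, summed Fosl1 identifiers and leaving out each library.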

Additional observations from a re-analysis of the deposited data

Results flagged for a closer look

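Among 52 named genes, 104 groups of 4 libraries were searched for a library far from the other 3, and 5 groups (4.81%) had one, where chance gives about 1 in 20. Klf10 had 13.01 TPM in SOD1-K123R replicate 4, with 20.58 to 21.07 TPM in the other 3 SOD1-K123R libraries, and its change passed with and without that library. The same library read 425.38 TPM for Gadd45a, the lowest of its group. It stood apart for 42 of the 2890 genes tested (1.45%), while the other libraries did so for 15 to 50. Rem2 had its lowest SOD1-K123R value, 156 TPM, in replicate 2. Crem had its lowest SOD1-WT value, 15.3 TPM, in replicate 1. Tnfaip3 had its highest SOD1-WT value, 45.37 TPM, in replicate 4.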

How the results depend on the processing

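Among alternative values of the factors' log2 fold changes, 92 kept their direction and side of the threshold, and 5, all of Egr2, passed where the fit reported above did not. Egr2 passed after median-of-ratios scaling (0.49), after quantile normalization (0.43), without the trend in eBayes (0.25, limma adjusted p = 0.0461) and in 2 leave-one-out fits, whose range was 0.19 to 0.31; the cause was not tested. At a mean of at least 5 TPM Egr2 had no value, and 897 genes were lower in SOD1-K123R against 1476, since fewer genes were tested. Replicate numbers did not pair the libraries: the correlations of same-numbered deviations were -0.35, 0.016, -0.204 and 0.0536, and no library correlated best with its own number. With the replicate block 2743 genes passed against 2765, and Egr2 had 0.25 (limma adjusted p = 0.121). For the pair ratios, permuting within replicate numbers gave 0 passing pairs, because 4 pairs cannot give an exact p below 0.125. Leaving out 1 library gave 12 to 14 passing pairs against 13. Counts of list genes stayed within 1.5 times in 343 cases and moved further in 9. Depth is unknown, so no counting limit could be set for Egr2 near 1 TPM.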
